A study of Mus musculus with 11 samples.

Results

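Peaks of histone marks were read at 10 genes of the stomach gland, out of 21887 protein-coding genes of the mouse. They are 3 chief cell genes (Pgc, Bhlha15, Clps), 3 genes of mucous neck cells (Muc6, Tff2, Agr2) and 4 genes used as markers of metaplasia (Cd44, Clu, Wfdc2, Aqp5). The genes were chosen by name, with earlier results of these data known. All called peaks in each gene body and in 50 kb on each side (mm10) were taken from 11 peak lists. A peak counts as a promoter peak when it reaches to 1 kb or less from the start of a gene. The position of a peak within its own list is given as a percentile of strength, where 100 is the strongest peak. The same rank gives a higher percentile in a longer list, so percentiles also carry list length.

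The libraries came from epithelium of stomach glands. H3K27ac, acetylated lysine of histone H3 found at active promoters and enhancers, was profiled in 2 libraries of each of 4 genotypes. Wild type is the first. NICD carries Atp4bCre and Rosa26NICD, a Cre driven by a parietal cell gene and a transgene for the active, intracellular part of Notch. The 1-allele group carries both of these and Arid1aflox/+, and the 2-allele group both of these and Arid1aflox/flox, so all 3 mutant groups share Atp4bCre and Rosa26NICD. Arid1a is a subunit of the SWI/SNF chromatin remodelling complex. H3K4me3, a methylated lysine found at promoters, was profiled once in wild type, once in NICD and once in glands with floxed Arid1a. The last also carried Atp4bCre and Rosa26NICD, and its labels disagree on 1 or 2 floxed alleles. No source used here gives the age of the mice. Fixed pellets were pooled, so replicates may not be separate animals, and each p-value reflects the spread between libraries, which may be technical. The only antibody in the protocol is one to H3K27ac, also for the libraries labelled H3K4me3.

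Chief cells sit at the base of the gland and make digestive enzymes. Bhlha15 (Mist1) is the transcription factor of their secretory architecture. Mucous neck cells lie above them and secrete Muc6 and Tff2. When parietal cells are lost, the gland can turn to spasmolytic polypeptide-expressing metaplasia, in which cells at the base express neck cell mucins together with Cd44, Clu and Wfdc2. Whole glands were measured while the Cre acts in the parietal lineage, and a peak that is gained or missing cannot be assigned to fewer cells of a type or to less mark per cell.

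Peak lists differed in length before any gene was looked at. The H3K27ac lists held 20590 and 18360 peaks in wild type, 41405 and 25442 in NICD, 5165 and 7602 in the 1-allele group and 15362 and 14373 in the 2-allele group. For H3K4me3 there were 17558 peaks in wild type, 39420 with NICD and 5175 in the Arid1a-floxed library. Tags after duplicate removal ranged from 7.96 M in NICD replicate 2, which also had the highest redundant rate (0.52), to 18.26 M in wild-type replicate 1 among the 6 H3K27ac libraries with a stated depth. The depth of the 2-allele libraries is unknown and their lists carry positions only. Of other chief cell genes, Rab3d and Xbp1 had a promoter peak in all 11 libraries and Cblif only in H3K27ac wild-type replicate 1. Tnfrsf19 and Pnliprp2 had one in both H3K27ac wild-type libraries, and Pga5, Lipf, Chia1, Cpb1, Nr5a2 and Cel in none. Of parietal cell markers, Atp4a and Kcne2 had none, while Atp4b, Hrh2, Slc9a4, Car2 and Esrrg had one in both H3K27ac wild-type libraries. None of 6 endocrine and none of 4 endothelial genes had an H3K27ac promoter peak in any of the 8 libraries, against 17.2% to 54.3% of all genes. Of 6 blood genes, Ptprc had one in both NICD libraries and in 2-allele replicate 1. Of 6 fibroblast and muscle genes, Acta2, Col1a1 and Vim had one in NICD replicate 1. Acta2 also had one in wild-type replicate 1 and NICD replicate 2.

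RefSeq promoter sequence (GRCm38.p6) was at hand for 7 of the 10 genes, all but Tff2, Clps and Clu. The 200 bases before the start are shown for 6 genes whose calls differ most in kind: called in 1 wild-type library (Pgc), in NICD alone (Bhlha15, Muc6, Aqp5), in 3 of the 4 genotypes (Agr2) and in 7 of 8 libraries (Wfdc2). A promoter peak need not reach these bases. Of the H3K27ac libraries with one, it overlapped them in 0 of 1 for Pgc and for Muc6 and 2 of 2 for Bhlha15. For Aqp5 it did so in 1 of 1, for Agr2 in 2 of 6 and for Wfdc2 in 3 of 7. Capitals mark matches to TGGGAA, the core of the site of the Notch factor Rbpj, or to TATAAA, the TATA box, on either strand.
Pgc (chr17:47726642-47726841, plus strand): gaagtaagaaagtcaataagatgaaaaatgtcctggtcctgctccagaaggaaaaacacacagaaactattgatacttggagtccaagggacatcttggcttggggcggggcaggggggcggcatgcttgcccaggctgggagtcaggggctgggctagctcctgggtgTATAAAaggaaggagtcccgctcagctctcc
Bhlha15 (chr5:144190086-144190285, plus strand): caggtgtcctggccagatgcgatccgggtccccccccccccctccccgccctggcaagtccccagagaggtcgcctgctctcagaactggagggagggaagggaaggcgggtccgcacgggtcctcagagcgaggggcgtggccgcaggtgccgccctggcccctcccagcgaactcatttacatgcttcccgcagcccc
Muc6 (chr7:141655394-141655593, minus strand): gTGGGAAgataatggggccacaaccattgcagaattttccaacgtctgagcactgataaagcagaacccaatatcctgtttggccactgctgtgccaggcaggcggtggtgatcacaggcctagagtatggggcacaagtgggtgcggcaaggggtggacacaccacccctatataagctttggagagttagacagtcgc
Agr2 (chr12:35992725-35992924, plus strand): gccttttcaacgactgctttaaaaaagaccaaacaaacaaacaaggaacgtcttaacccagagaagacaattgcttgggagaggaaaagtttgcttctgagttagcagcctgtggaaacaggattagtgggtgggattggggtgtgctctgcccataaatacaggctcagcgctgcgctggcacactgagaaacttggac
Wfdc2 (chr2:164562515-164562714, plus strand): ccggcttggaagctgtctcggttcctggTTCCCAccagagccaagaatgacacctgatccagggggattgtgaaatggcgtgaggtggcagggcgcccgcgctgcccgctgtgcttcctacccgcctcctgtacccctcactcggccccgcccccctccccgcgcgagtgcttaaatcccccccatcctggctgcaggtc
Aqp5 (chr15:99590828-99591027, plus strand): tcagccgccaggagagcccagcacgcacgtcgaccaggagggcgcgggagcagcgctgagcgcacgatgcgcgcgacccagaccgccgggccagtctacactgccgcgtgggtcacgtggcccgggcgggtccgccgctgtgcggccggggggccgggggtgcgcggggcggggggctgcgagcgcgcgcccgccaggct
These stretches differ in composition. Over the table's 300 bases, from 250 before to 50 after the start, Aqp5 held 46 CpG dinucleotides and 79.7% G and C, more CpG than 98.0% of 17492 promoters. The median promoter held 13 CpG. Bhlha15 held 17 and Wfdc2 16, while Pgc held 9, Agr2 7, Muc6 6 and Cd44 6. TGGGAA occurred in 4 of the 7 sequences (Muc6, Agr2, Cd44, Wfdc2) and in 24.5% of all promoters. TATAAA occurred in Pgc alone, 31 bases before its start, and in 13.3% of all promoters. The E-boxes CATATG and CAGCTG, the Xbp1 element TGACGTG and the AP-1 site TGANTCA occurred in none of the 7, and in 3.26%, 15.1%, 2.2% and 7.08% of all promoters. All motifs were searched on both strands, and a match describes letters, not binding.

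The number of these genes with an H3K27ac promoter peak was 5 and 3 of 10 in wild type, against 44.8% and 42.6% of all genes. In NICD it was 9 and 6, against 54.3% and 48.9%. It was 0 and 1 in the 1-allele libraries, against 17.2% and 27.1%, and 4 in each 2-allele library, against 44.4% and 42.7%. In NICD replicate 1 the gene without a promoter peak was Pgc, and in the 1-allele group the gene with one was Wfdc2, in replicate 2. None of the 10 was among the 3152 genes (14.4%) with a promoter peak in all 8 H3K27ac libraries.

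**Figure D1:**
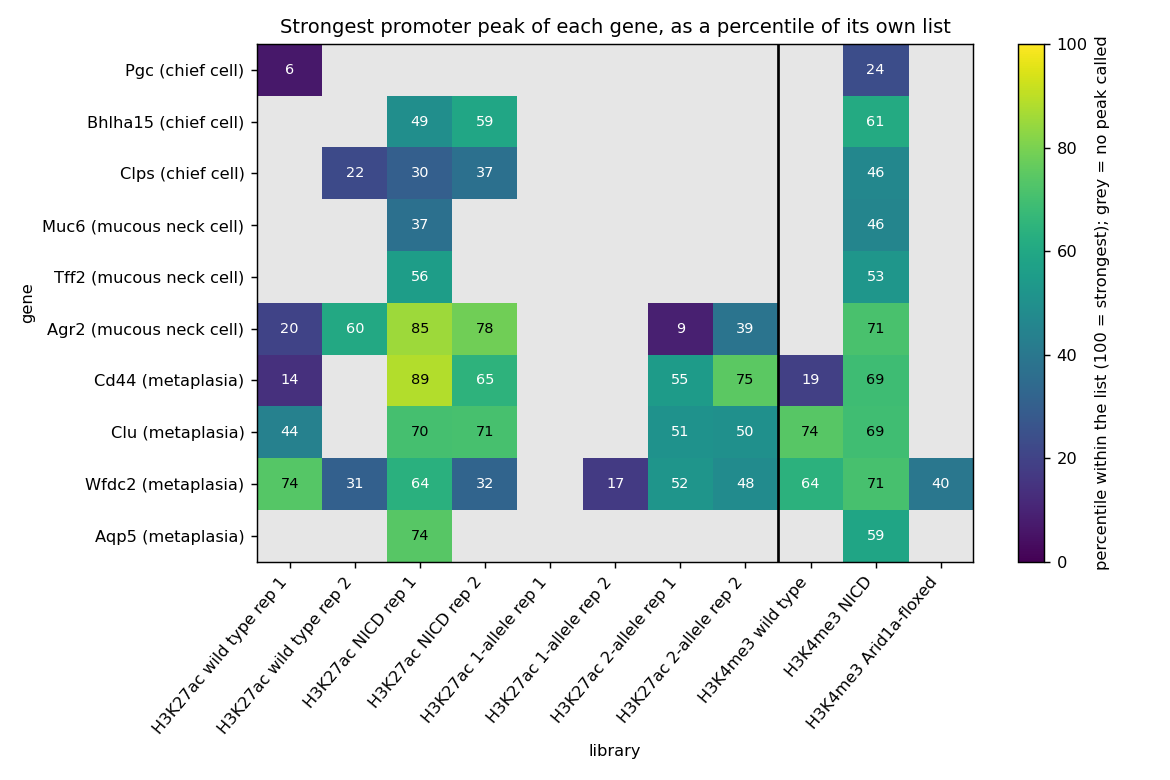
Strongest promoter peak of each of the 10 genes (rows) in each of the 11 libraries (columns), as a percentile of its own list, with 100 the strongest and grey where no peak was called. The columns of the 1-allele group hold a single value, Wfdc2 at 16.9, and the H3K4me3 column of NICD is filled for all 10 genes.

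Pgc, which encodes pepsinogen C (chromosome 17, 47726842 to 47734478, GRCm38), had a promoter peak only in wild-type replicate 1, at percentile 6.29 and with the authors' fold enrichment of 3.31. The peaks in its window numbered 4 and 3 in wild type, 7 and 6 in NICD, 0 and 2 in the 1-allele group and 4 and 4 in the 2-allele group. NICD lay above the other groups and the 1-allele libraries below, with no overlap. How many of all genes split this way was not counted. Over all genes tested, mean window peaks were also highest in NICD (5.93 and 4.05) and lowest in the 1-allele group (0.78 and 1.22). At Pgc, 3 to 5 of the peaks in each wild-type, NICD and 2-allele library stood at starts of neighbouring genes. The strongest was at the start of Tfeb, a regulator of lysosome genes, within the Pgc window. It lay at percentiles 90.3 and 98.1 in wild type, 93.7 and 93.6 in NICD, 64.0 in 1-allele replicate 2, and 80.0 and 69.0 in the 2-allele group. Other peaks stood at the starts of Tomm6, Frs3 and Prickle4. Inside Tfeb, regions 35.4 and 36.4 kb from the Pgc start were called in both NICD libraries and no other H3K27ac library.

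Bhlha15 (chromosome 5, 144190286 to 144194441) had a promoter peak in both NICD libraries, at percentiles 49.3 and 59.0 with fold enrichments of 5.21 and 6.64, and in none of the other 6 H3K27ac libraries. The peak covered the start itself (144190259 to 144190835), so it overlapped the sequence shown above. It was the only one of the 10 promoters present in both NICD lists and absent from both wild-type lists, a pattern held by 3.8% of all genes. Window peaks numbered 1 and 1 in wild type, 6 and 2 in NICD, 0 and 1 in the 1-allele group and 1 and 3 in the 2-allele group. The NICD counts lay above those of wild type and 1-allele, as the means over all genes tested did, and overlapped those of 2-allele. The share of all genes with this split was not counted. The site shared most widely was the start of Tecpr1, an autophagy gene, 32.5 kb away, called in 7 libraries.

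Clps encodes colipase, the cofactor of pancreatic lipase (chromosome 17, 28558210 to 28560766). Its promoter peak, 0.8 kb before the start, lay at percentile 22.5 in wild-type replicate 2 and at 30.4 and 36.8 in NICD. Window peaks numbered 4 and 4 in wild type, 7 and 3 in NICD, and 0 in all 4 libraries with a floxed Arid1a allele. The libraries with and without a floxed allele did not overlap, and the share of all genes with this split was not counted. Over all genes tested, mean window peaks were also lower in the floxed libraries (0.78 to 2.7) than in those without a floxed allele (2.98 to 5.93). Away from the gene, a region 42.7 kb downstream (28517759 to 28518114) lay at 86.5 and 52.8 in wild type and 70.0 and 30.7 in NICD. A region 47.7 kb downstream lay at 59.3 and 38.3 in wild type and 66.0 and 10.4 in NICD. Neither overlapped a protein-coding gene, and H3K4me3 covered the nearer one in NICD only.

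Muc6, the gel-forming mucin of neck cells and gland bases (chromosome 7, 141633459 to 141655393), had an H3K27ac promoter peak only in NICD replicate 1, at percentile 36.8. Its window was nearly empty, with 1 and 2 peaks in wild type, 2 and 0 in NICD, 0 and 1 in the 1-allele group and 1 and 0 in the 2-allele group. These overlapped in every pair of groups. A region in the gene body, 16 kb from the start, was called at 25.2 and 37.1 in wild type, 34.4 in 1-allele replicate 2 and 11.8 in 2-allele replicate 1, and in neither NICD library.

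Tff2, the trefoil peptide spasmolytic polypeptide (chromosome 17, 31141062 to 31144282), had a promoter peak only in NICD replicate 1, at percentile 55.7. No strand was at hand for Tff2, so both gene ends served as starts. Window peaks numbered 4 and 4 in wild type, 8 and 3 in NICD, 2 and 0 in the 1-allele group and 1 and 0 in the 2-allele group. Both wild-type libraries lay above all 4 floxed libraries, as the means over all genes tested did (3.34 and 2.98 against 0.78 to 2.7). How many genes share this split was not counted. Inside the neighbouring gene Tmprss3, a region 39.6 kb away lay at 49 and 60.2 in wild type and 82.2 and 50.8 in NICD, and in no floxed library. The start of Tff1, the trefoil gene of pit cells, lay in the same window and was called in 5 libraries, among them 1-allele replicate 1 at 43.1 and 2-allele replicate 1 at 16.1. In NICD replicate 2 the peak of that region, at percentile 0.707, lay in the Tff1 body more than 1 kb from its start.

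Agr2, a protein disulfide isomerase needed for mucin folding (chromosome 12, 35992925 to 36004081), had promoter peaks in 6 libraries. They lay at percentiles 20.3 and 60.3 in wild type, 85.2 and 78.4 in NICD and 8.87 and 38.6 in the 2-allele group, with no peak in the 1-allele group. The NICD values stood above all others. Window peaks numbered 5 and 3 in wild type, 8 and 5 in NICD, 1 and 1 in the 1-allele group and 2 and 2 in the 2-allele group. A region 25.7 kb before the start (35966160 to 35967202) lay at 49.7 and 19.3 in wild type and 65.1 and 38.5 in NICD, and was called in no floxed H3K27ac library. At the other end of the window, the start of Tspan13, a tetraspanin gene 48.9 kb away, was the single region of the 10 windows called in all 8 H3K27ac libraries.

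Cd44, the hyaluronan receptor whose variant forms mark metaplastic cells (chromosome 2, 102811141 to 102901669), had promoter peaks at percentiles 13.8 in wild-type replicate 1, 88.6 and 64.8 in NICD and 55.0 and 74.9 in the 2-allele group. There was none in wild-type replicate 2 or in the 1-allele group. The peaks covered 199 bp of the promoter window in wild-type replicate 1, 1262 and 736 bp in NICD and 491 and 702 bp in the 2-allele group. Window peaks numbered 1 and 0 in wild type, 9 and 4 in NICD, 0 and 0 in the 1-allele group and 3 and 2 in the 2-allele group. The NICD counts were the highest and the 2-allele counts lay above wild type, without overlap. The latter split rests on few peaks, and the share of all genes with either split was not counted. Over all genes tested the NICD means were also the highest, while the 2-allele means (2.7 and 2.51) lay below wild type (3.34 and 2.98). Inside the gene, a region 74.8 kb from the start was called in NICD only, near the weak end of both lists (12.1 and 12).

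Clu encodes the secreted chaperone clusterin (chromosome 14, 65968483 to 65981548). Its promoter peaks lay at 43.8 in wild-type replicate 1, 70.5 and 70.9 in NICD and 50.8 and 50.2 in the 2-allele group, with none in the other 3 libraries. Their ranks, which do not carry list length, were 11581 in wild-type replicate 1, 12202 and 7401 in NICD, and 7561 and 7154 in the 2-allele group. Fold enrichment was 4.76 in wild-type replicate 1 and 4.23 and 5.19 in NICD. Its calls matched those of Cd44 in all 8 libraries, as did those of 337 genes (1.54%) in all. Window peaks numbered 1 and 0 in wild type, 4 and 3 in NICD, 0 and 0 in the 1-allele group and 1 and 3 in the 2-allele group. A second site at the start of Scara3, a scavenger receptor gene 14.3 kb before Clu, lay at 69.5 and 68.6 in NICD and 34.8 in 2-allele replicate 2.

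Wfdc2 (HE4), a secreted whey acidic protein-type inhibitor (chromosome 2, 164562715 to 164568510), had the most widely called promoter of the 10. Its peaks lay at 73.7 and 30.6 in wild type, 63.6 and 32.2 in NICD, 16.9 in 1-allele replicate 2 and 52.2 and 48.4 in the 2-allele group. Wild type, NICD and 2-allele overlapped. Window peaks numbered 2 and 2 in wild type, 12 and 5 in NICD, 0 and 1 in the 1-allele group and 3 and 2 in the 2-allele group. A region 40.1 kb before the start (164522125 to 164522602), outside protein-coding genes, lay at 81.9 and 83.0 in wild type, 77.3 and 73.0 in NICD and 74.9 and 23.9 in the 2-allele group. It was in neither 1-allele list, and H3K4me3 covered it in wild type and NICD.

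Aqp5, a water channel (chromosome 15, 99591028 to 99594829), had a promoter peak only in NICD replicate 1, at percentile 74.0 and over 939 bp. Window peaks numbered 5 and 1 in NICD and 0 in all other H3K27ac libraries. A region 6.8 kb before the start, inside Aqp2, was the one called in both NICD libraries, at 16.6 and 34.5. Muc6, Tff2 and Aqp5 shared their calls over the 8 libraries with 635 genes (2.9%). Genes of the lists among them were Lgr5, Procr and Rab26 (chief), Creb3l4 (neck), and Vim and Col1a1 (fibroblast and muscle).

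**Figure D2:**
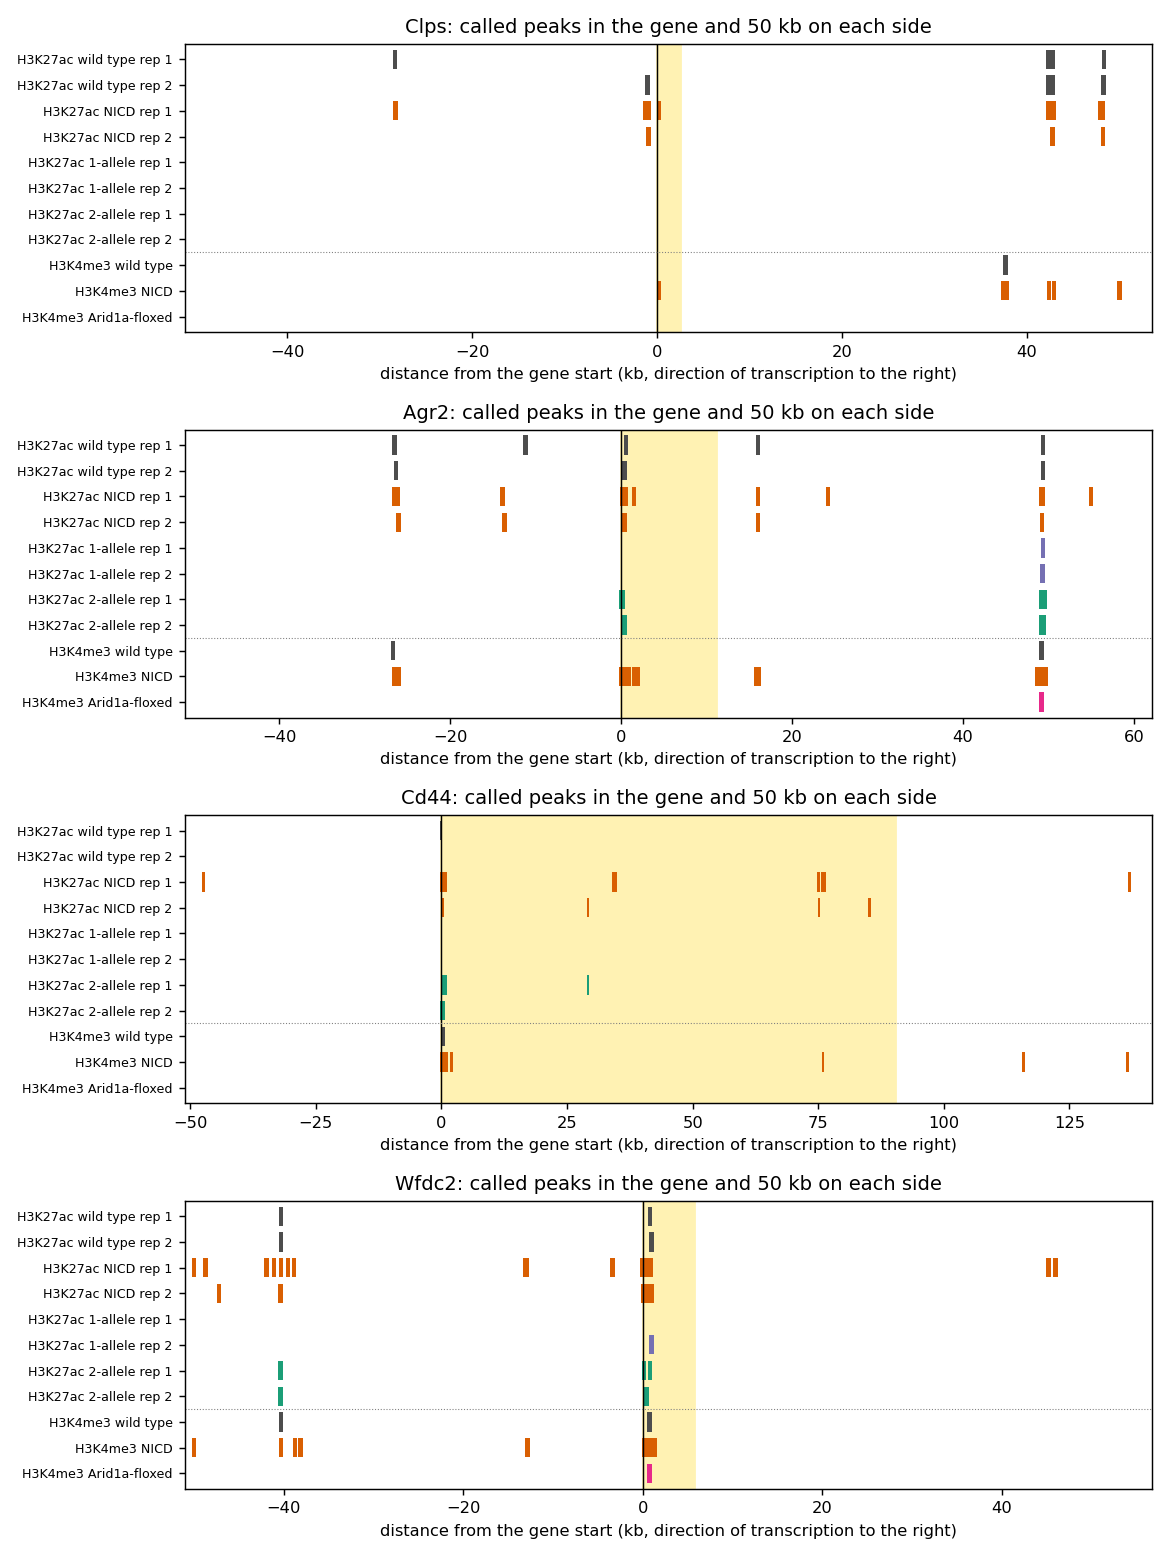
Called peaks of each library (rows) in the gene and 50 kb on each side for Clps, Agr2, Cd44 and Wfdc2, by distance from the gene start in kb, with the gene shaded and bars drawn at least 0.5 kb wide. The Clps panel holds no H3K27ac peak in the 4 libraries with a floxed Arid1a allele, and the Wfdc2 panel shows the site 40.1 kb before the start in 6 of the 8.

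H3K4me3 was called at the promoter of 3 of the 10 genes in wild type (Cd44, Clu, Wfdc2), against 49.9% of all genes. It was called at all 10 in NICD, against 65.3%, and at Wfdc2 alone in the Arid1a-floxed library, against 20.7%. The 7 genes called in NICD and not in wild type were every chief and neck cell gene and Aqp5, a pattern held by 15.4% of all genes. In NICD the promoter percentiles ran from 23.8 for Pgc to 71.1 for Agr2. Clu lay at 74.1 in wild type and 69.4 in NICD, Wfdc2 at 64.2 and 70.8, and Cd44 at 18.8 and 69.1. The starts of Clps and Clu were placed at the gene end with an H3K4me3 peak, so a call in at least 1 of the 3 libraries was fixed for these genes. With 1 library per group these differences have no replicate check, and the NICD list was also the longest of the 3.

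Between NICD and wild type, Bhlha15 was the promoter that separated the groups, and none of the 10 showed the reverse, against 0.128% of all genes. Bhlha15 separated the groups whichever library was left out. Leaving out a library lifts a condition, so the count could only stay or rise. Without NICD replicate 2 it was 4 (Bhlha15, Muc6, Tff2, Aqp5), without wild-type replicate 1 it was 3 (Bhlha15, Cd44, Clu), and without wild-type replicate 2 it was 2 (Bhlha15, Clps). Without wild-type replicate 2, Pgc showed the reverse. Of 78 merged regions in the windows, 8 were present in both NICD lists and absent from wild type, against 12.9% of all 45846 regions, and 46 without NICD replicate 2. In the other direction there were 2, the region in Muc6 and one 29.3 kb from Tff2, against 0.541%, and 4 without wild-type replicate 2. The Tff2 region lay near the weak end of both wild-type lists, at percentiles 1.6 and 6.15.

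Between NICD and the 1-allele group, 5 promoters were present in both NICD lists and absent from both 1-allele lists: Bhlha15, Clps, Agr2, Cd44 and Clu, against 19.1% of all genes. Without NICD replicate 2 there were 8, with Muc6, Tff2 and Aqp5 added. No promoter separated the groups the other way, against 0.00457%. Of the 26 window regions that both NICD lists held, 21 were in neither 1-allele list, which is 80.8%, against 63.2% of the 21090 such regions in the genome, and 29.1% of all regions had this pattern. Without NICD replicate 2 there were 62. The other way there were 0, against 0.072%, and 2 without 1-allele replicate 1. List length differed with the groups here, 41405 and 25442 peaks against 5165 and 7602.

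Between NICD and the 2-allele group, Bhlha15 and Clps were present in both NICD lists and absent from both 2-allele lists, against 3.71% of all genes. Without NICD replicate 2 there were 5, with Muc6, Tff2 and Aqp5 added. None showed the reverse, against 0.0228%. Of the 26 regions in both NICD libraries, 13 were in neither 2-allele list, which is 50.0%, against 33.5% of all such regions, and 15.4% of all regions had this pattern. Without NICD replicate 2 there were 51. A single region, at the start of Tomm6 in the Pgc window, was in both 2-allele lists and absent from NICD, against 0.0872%, and without 2-allele replicate 2 there were 2. The Tomm6 start was not without peaks in NICD, where 2 neighbouring regions at it were called in both libraries, at 67.2 and 67.7 and at 67.3 and 39.8.

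Between the Arid1a-floxed groups, Agr2, Cd44 and Clu had a promoter peak in both 2-allele and neither 1-allele library, against 12.2% of all genes. None showed the reverse, against 0.0366%. Of the regions, 6 were in both 2-allele and neither 1-allele list, against 9.15%, and 11 without 2-allele replicate 1. The reverse held for 0, against 0.369%, and for 1 without 1-allele replicate 1. Against wild type, Agr2 was the promoter in both wild-type and neither 1-allele library (11.4% of all genes), and no promoter separated wild type from the 2-allele group in either direction (1.41% and 1.28%). Of 15 regions in both wild-type libraries, 6 were in neither 2-allele list, which is 40.0%, against 15.9% of the 12241 such regions in the genome, and 4.24% of all regions had this pattern. They lay in the windows of Clps, Tff2 and Agr2, away from all gene starts.

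The 10 windows together held 23 and 19 H3K27ac peaks in wild type, 68 and 32 in NICD, 3 and 6 in the 1-allele group and 16 and 16 in the 2-allele group. Group means were 21.0 ± 2.83, 50.0 ± 25.5, 4.5 ± 2.12 and 16 ± 0 (SD, n = 2 each). Per 10000 peaks of the list they were 10.8, 14.5, 6.85 and 10.8. Peaks away from all gene starts made up 11 of 23 and 10 of 19 in wild type and 44 of 68 and 17 of 32 in NICD. They made up 0 of 3 and 1 of 6 in the 1-allele group and 3 of 16 in each 2-allele library. The whole lists held 39.7% and 38.8% such peaks in wild type, 63.0% and 46.9% in NICD, 27% and 21.3% in the 1-allele group and 28.0% and 26.8% in the 2-allele group. By role, mean window peaks in the order wild type, NICD, 1-allele and 2-allele were 8.5, 15.5, 1.5 and 6.0 for chief, 9.5, 13.0, 2.5 and 3.0 for neck and 3.0, 21.5, 0.5 and 7.0 for metaplasia genes. The share of all genes whose window counts split the groups as at Pgc, Bhlha15, Clps, Tff2 or Cd44 was not counted. Over all genes tested the groups stood in the same order as over the 10. The mean per window was 3.34 and 2.98 in wild type, 5.93 and 4.05 in NICD, 0.78 and 1.22 in the 1-allele group and 2.7 and 2.51 in the 2-allele group. For the 10 genes it was 2.3 and 1.9, 6.8 and 3.2, 0.3 and 0.6, and 1.6 and 1.6. Of the 78 regions, 42 were called in a single library, 35 of them in NICD replicate 1.

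**Figure D3:**
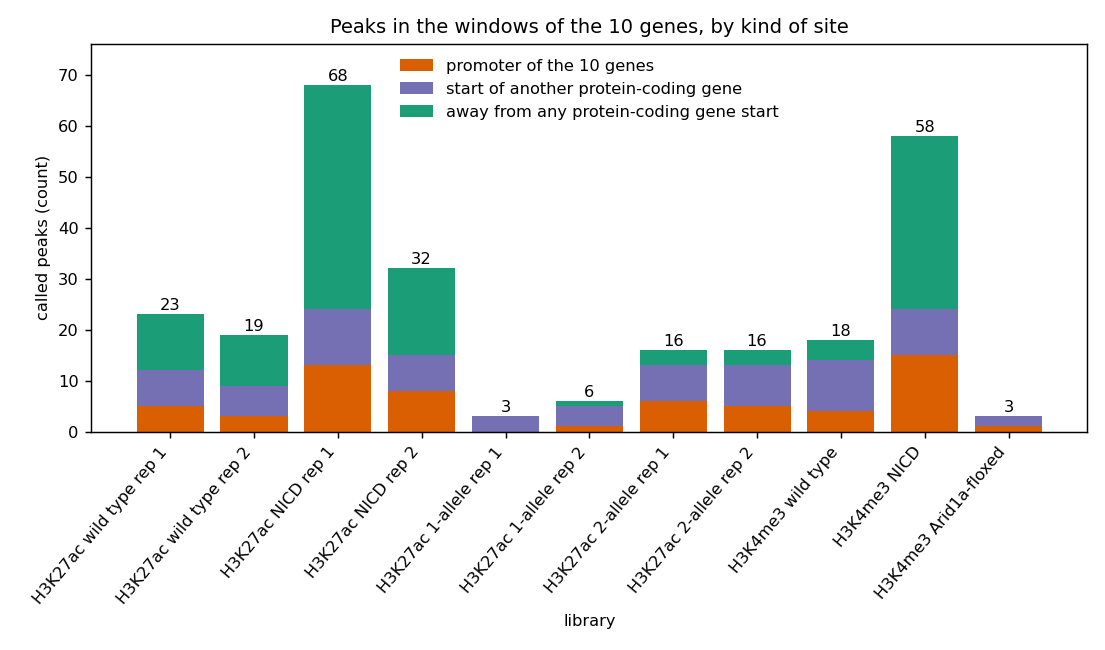
Number of called peaks in the 10 windows together for each library, split by site: promoters of the 10 genes, starts of other genes, and places away from gene starts. NICD replicate 1 holds 68 peaks, 44 of them away from gene starts, and the 1-allele libraries hold 3 and 6.

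The count of window peaks was compared over the 4 H3K27ac groups for 17608 of the 21887 protein-coding genes. The comparison used an exact permutation test over the 105 ways to pair 8 libraries. The smallest p it allows is 0.00952, and a pair of groups with 2 libraries each cannot go below 0.333. Of 17608 genes, none had a Benjamini-Hochberg adjusted p of 0.05 or less (0.0%), and the smallest adjusted p was 0.123. Unadjusted, 4 of the 10 genes reached 0.05, against 28.3% of all genes tested. They were Agr2 (exact p = 0.019), and Pgc, Cd44 and Wfdc2 (each exact p = 0.0286), all with an adjusted p of 0.123 in this permutation test. Clps gave an exact p of 0.0857 on counts and 0.0286 on counts per 10000 peaks of the list. Pgc, Agr2, Cd44 and Wfdc2 per 10000 peaks gave 0.571, 0.343, 0.0571 and 0.105 in the same exact test, so none of the 4 kept its unadjusted call once list length was divided out.

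Other genes of the same cells, from lists of names, were read in the same way. Of all genes, 44.8% and 42.6% had a promoter peak in wild type and 54.3% and 48.9% in NICD. The share was 17.2% and 27.1% in the 1-allele group and 44.4% and 42.7% in the 2-allele group. Of 14 other chief cell genes, 5 and 4 had a promoter peak in wild type, 7 and 3 in NICD, 2 and 3 in the 1-allele group and 2 and 2 in the 2-allele group. Of 10 other neck cell genes the counts were 5 and 5, 7 and 6, 3 and 3, and 4 and 4 in the same order. Of 16 other metaplasia genes they were 7 and 7, 11 and 9, 1 and 2, and 7 and 7. In that list Muc4 and Cldn7, a membrane mucin and a claudin, had promoter peaks in both NICD lists and none in wild type. So did Fcgbp of the neck list, the pit cell marker Capn8 and the blood marker Ptprc, against 3.8% of all genes. Sox9, Cftr, Cldn7 and Krt7 were called in both 2-allele and neither 1-allele library, as Agr2, Cd44 and Clu were, against 12.2% of all genes. The parietal cell markers Slc9a4 and Kcnq1 had this pattern too. Over all 8 H3K27ac libraries, Slc9a4 had the same calls as Agr2, and Kcnq1 the same as Cd44 and Clu. Of 10 parietal cell markers, 7 and 5 had a promoter peak in wild type, 3 and 3 in NICD, 2 and 1 in the 1-allele group and 3 and 3 in the 2-allele group. Atp4b, Hrh2 and Esrrg were the parietal genes with a promoter peak in both wild-type lists and none in NICD, against 0.128% of all genes. Of 6 blood genes, 1 was called in each NICD library and in 2-allele replicate 1, Ptprc being the one in both NICD libraries, and 0 elsewhere. Of 6 fibroblast and muscle genes, 1 and 0 were called in wild type and 3 and 1 in NICD, and none in the floxed groups. The part of these cells in the peaks at the 10 genes was not tested.

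**Figure D4:**
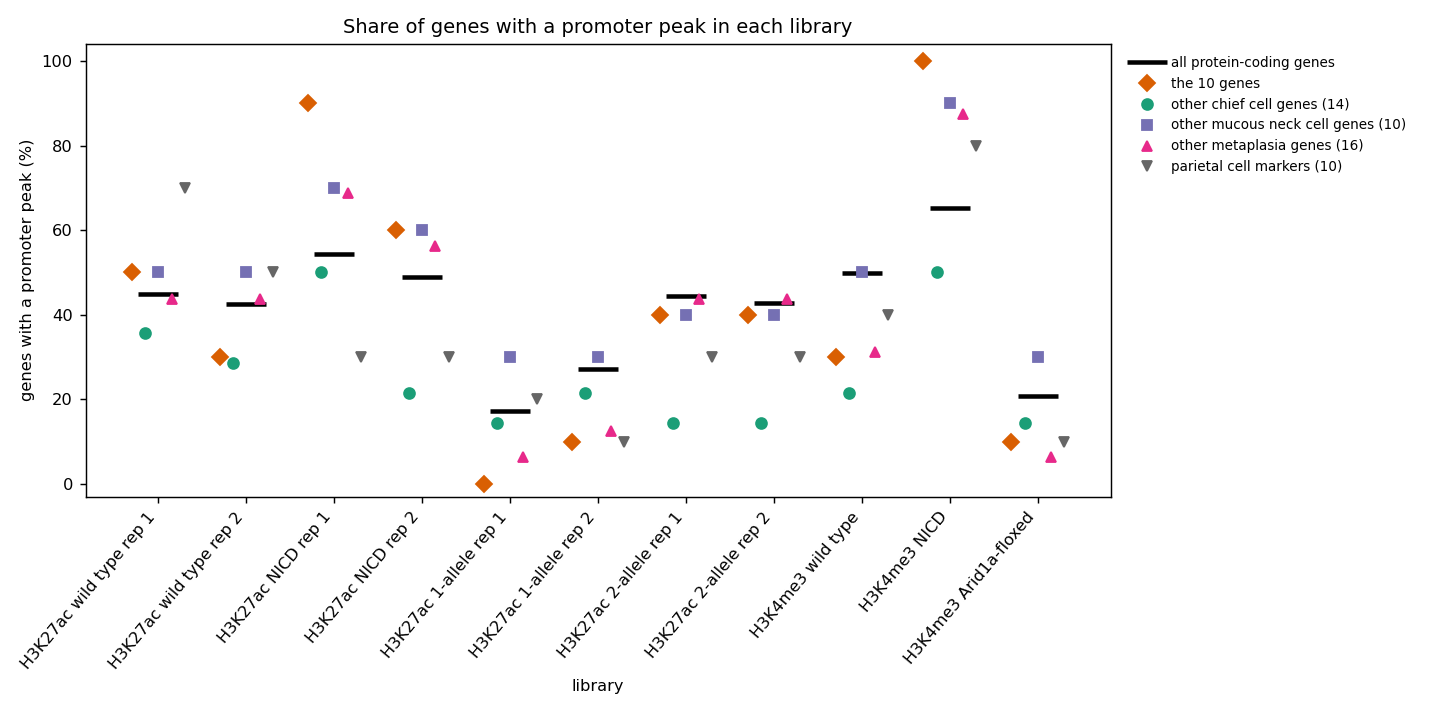
Percent of genes with a promoter peak in each of the 11 libraries for the 10 genes (diamonds), the other chief, neck and metaplasia genes, the parietal markers and all protein-coding genes (black bars). Among the H3K27ac libraries the 10 genes run from 0 in 1-allele replicate 1 to 9 of 10 in NICD replicate 1, while the parietal markers are highest in wild-type replicate 1, at 7 of 10.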

How the data were processed

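ChIP-seq peak lists of 11 libraries were used as deposited. Reads were aligned with Bowtie2 to mm10 (GRCm38) and peaks called with MACS2, per the submitters' processing notes. The authors made 9 of the lists with MACS 2.0.10.20131216, per the file headers, at a q-value limit of 0.05, from 1 library at a time with no control and a background estimated over at most 10 kb. The deposited values of a peak are its pileup signal, the −log10 of its q-value and of its p-value, and the fold enrichment (a ratio to background). The pileup signal was not used. Both 2-allele lists hold positions only, and no source used here says how they were called. Called without a control, wide domains can be missed, so a place without a peak may still carry the mark.

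Autosomal, X and Y peaks were ranked within each list by −log10 q. The 2-allele lists were ranked by file order: of the first 1000 regions, 95.6% and 94.8% overlapped a peak of 1-allele replicate 2, and of the last 1000, 8.4% and 11.5%. Gene starts came from RefSeq promoters for 17492 genes, from a single end with an H3K4me3 peak for 2581 (Clps and Clu among them), and from both ends for 1814. An H3K4me3 call at those 2581 is therefore partly fixed by the choice of start. Regions were merged over the 8 H3K27ac lists at 1 bp of overlap. Groups came from the genotype labels. A promoter or region separates 2 groups when both lists of one hold it and both lists of the other lack it, with no p. Window counts were compared by an exact permutation test with Benjamini-Hochberg adjustment, which was tested on simulated data. Same-numbered libraries were checked for pairing.

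The genes named are the 10, the genes whose starts have a peak in their windows, and genes of the lists that separate groups or share calls with one of the 10. Some further genes of the lists were named to describe the libraries. The genes, the lists and the tests were chosen with earlier results of these data known. Alternatives were another promoter window and flank, either gene end as start, a stricter q, another overlap, lists of equal length, counts per 10000 peaks and leaving out each library. Python 3.11.15, numpy 2.4.6, pandas 2.3.3 and matplotlib 3.10.9 were used.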

Additional observations from a re-analysis of the deposited data

How the results depend on the processing

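Promoter separations of the 10 genes were the same counts with a promoter window of 2.5 kb and with either gene end as start. With every list held to its strongest 5165 peaks, the 4 promoter separations (NICD over wild type, over 1-allele and over 2-allele, and 2-allele over 1-allele) were all 0. Region separations were then 0 as well, except for 1 region in wild type and not NICD. It was neither of the 2 found in the full lists, which ranked 15398 and 11548 (Muc6) and 20261 and 17231 (Tff2) in wild type. It was the Wfdc2 site 40.1 kb before the start, at ranks 3726 and 3119 in wild type, which both full NICD lists held. At a q-value of 0.001 the count was also 1, there the Muc6 region. In equal lists, Cd44 was the single promoter of the 10 called, in NICD replicate 1 and 2-allele replicate 2. The separations with the longer list on the called side, such as NICD over 1-allele, cannot be told apart from list length. The 2 regions in wild type and not NICD and the 1 in 2-allele and not NICD were in the shorter lists.

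In equal lists the NICD mean was no longer the highest. Window peaks averaged 3.5, 2.5, 3.5 and 3.5 for wild type, NICD, 1-allele and 2-allele, each with an SD of 0.707 (n = 2). With a flank of 25 kb the means were 9.0, 27.5, 3.0 and 9.0 in that order. With 100 kb they were 35.5, 89.0, 9.5 and 34.0 in wild type, NICD, 1-allele and 2-allele, and per 10000 peaks 10.8, 14.5, 6.85 and 10.8.

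Leaving out each library moved window peaks over 19 to 23 in wild type, 32 to 68 in NICD, 3 to 6 in 1-allele and 16 to 16 in 2-allele. Promoter separations ran from 1 to 4 for NICD over wild type, 0 to 1 for the reverse, 5 to 8 for NICD over 1-allele, 2 to 5 for NICD over 2-allele and 3 to 4 for 2-allele over 1-allele. Region separations ran from 10 to 46 for NICD over wild type, 2 to 4 for the reverse, 22 to 62 for NICD over 1-allele, 0 to 2 for the reverse, 15 to 51 for NICD over 2-allele, 1 to 2 for the reverse, 6 to 11 for 2-allele over 1-allele and 0 to 1 for the reverse. The highest values for NICD were those without NICD replicate 2, the library of lowest stated depth. Leaving out a library lifts a condition, so promoter separation counts could only stay or rise.

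In the window test, 4975 of 17608 genes had an unadjusted p of 0.05 or less. Per 10000 peaks there were 3266 of 17608 and in equal lists 70 of 14012, with 0 after adjustment in each. Clu and Aqp5 were not tested in equal lists. With the replicate number as a block there were 1457 of 17608 (smallest p 0.0417), and 0 after adjustment. The numbers did not pair the libraries, since correlations of same-numbered deviations ran from -0.0262 to 0.0571 over 6 pairs of groups.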
